A study of Zea mays with 112 samples.

Results

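The 100 strongest binding sites of each maize transcription factor (TF) in the series are described here. They are the 100 peaks with the highest deposited signal in each TF's list, with ties taken by position, and make 0.115% of the 9750022 peaks in all lists. The lists come from ampDAP-seq, in which a HaloTag fusion of a TF made in wheat germ extract is offered PCR-amplified DNA of the inbred line B73, taken from leaves at 14 days after germination per the labels. All lists share this DNA source, with 1 list per TF. The lists also differ in their run identifier, and those of NRP1 and NACTF2 are merged lists of the authors. No replicate library of a TF is named in the labels, so n counts TFs and every spread is a spread between TFs. The strongest sites were compared with as many lower-ranked peaks, the last 100 of the 5000 strongest of the same list, the shortest list holding 5387 peaks and the longest 285897. Each peak is a short interval of fixed length around a summit on the B73 v4 build, and 2 summits were taken as 1 shared site when they lay within 100 bp of each other. TFs were grouped by the leading letters of their names (the stem): 20 WRKY, 17 EREB, 13 BZIP, 13 NACTF, 7 MYBR and 5 MYB TFs form the 6 large stems.

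A TF reads short DNA words through its DNA-binding domain, and TFs of a family carry related domains and usually read related words. WRKY proteins recognise the W-box, EREB proteins belong to the AP2/ERF family that reads GC-rich or dehydration-responsive elements, BZIP proteins read palindromes with an ACGT or related centre, and NACTF proteins belong to the NAC family. Amplified DNA carries neither nucleosomes nor methyl groups, so a strong site in this assay is one that the protein bound on naked DNA in vitro. The assay says nothing of whether the site is open or used in endosperm.

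The DNA words listed for some groups of TFs that share many of their strongest sites are shown first, so that the groups can be compared by their letters. They are the longest unambiguous stretches of the motif letters that the study's supplementary table lists for each TF, found by the study in peaks of the same lists, and are therefore no independent evidence. Capitals mark the run common to all TFs shown of a group, and some words are given as the reverse complement so that the runs align. Only TFs with the run are shown, and not all TFs of a group. The run need not be common to the whole group.
BZIP54: TGACGTGGca
BZIP111: TGACGTGGca
BZIP104: TGACGTGG
BZIP121: gacAGCTGtc
BZIP78: AGCTGgc
BZIP23: AGCTGgc
WRKY72: aagTCAACGctg
WRKY94: gaaaagTCAACG
WRKY123: TCAACGctgata
NKD1: agtTCGTCGT
NKD2: TCGTCGTcttc
OCL1: gatTTAAATGct
HB118: aaTTAAATGct
OCL5A: TTAAATG
DBF1: aCGCCGACCTTC
EREB18: CGCCGACCTTC
MYBR98: caAAACCCTAaa
SMH1: ccAAACCCTA
The words of BZIP54, BZIP111 and BZIP104 share 8 letters around ACGT, whereas those of BZIP121, BZIP78 and BZIP23 share 5 letters around AGCT. The W-box core read on its other strand, GTCAA, stands in the words of WRKY72 and WRKY94, and all but its first letter in that of WRKY123. No v4 genome sequence was used here, so the letters at the single sites were not read.

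The first question was how much of a list's signal its strongest sites hold. The signal chose these peaks, so the values are a description. In a list of median length the 100 strongest peaks were 0.135% of all peaks, and over all lists they held 1.49% of the summed signal. Per list their share of the signal was lowest for WRKY92 (0.352%), had a median of 1.57% and was highest for MYB155 (28.2%). The share was above 5% in 8 lists and below 1% in 35. Of the signal of the 5000 strongest peaks, the 100 strongest held a median of 5.86%, with a range of 3.66% to 36.6%. The lower-ranked peaks held a median of 0.319% of their list's signal. By stem the median share was 2.88% in MYB TFs, 2.20% in WRKY TFs, 2.02% in NACTF TFs, 1.90% in MYBR TFs, 0.946% in BZIP TFs and 0.875% in EREB TFs. The ranges of the stems overlapped, with 0.352% to 4.11% in WRKY TFs and 0.385% to 6.43% in EREB TFs. The signal is in the caller's units and was compared only within a list.

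**Figure D1:**
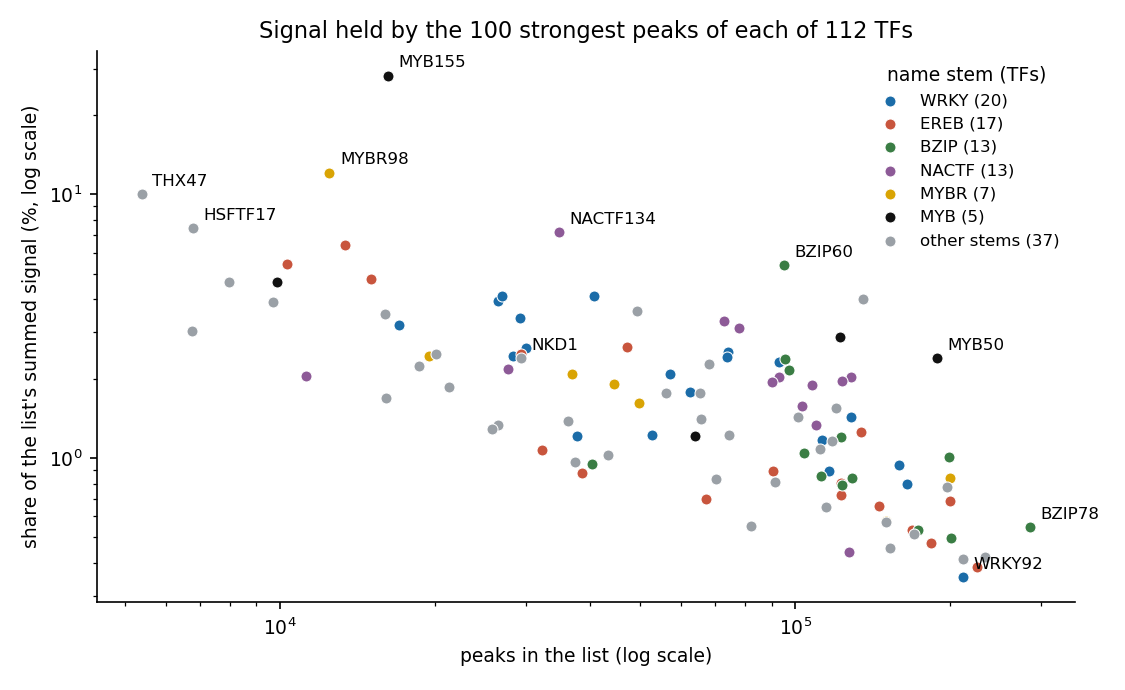
Share of a list's summed signal held by its 100 strongest peaks (vertical axis, %, log scale) against the number of peaks in the list (horizontal axis, log scale), 1 point per TF, coloured by name stem. MYB155 at 28.2%, MYBR98 at 12.1% and THX47 at 10% lie highest, and WRKY92 at 0.352% lies lowest.

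Lists differed in how steeply the signal fell over these 100 ranks. The strongest peak had 2.48 times the signal of rank 100 in the median list, 1.34 times in WRKY32 and 30.8 times in THX47, a trihelix TF. In THX47 the signal was 5987 at rank 1, 1902 at rank 2 and 194.1 at rank 100, and rank 1 alone held 1.74% of the signal of the list. Rank 100 stood 9.71 times above the list median in the median list, with 1.86 times in ZIM10 and 85.0 times in DBF1, the dehydration-responsive element binding factor of maize. MYB155, with 16222 peaks, had a signal of 8334 at rank 1, 2246 at rank 100 and 2228 at the next rank, against 41 at rank 5000 and a list median of 29.6. The boundary at rank 100 fell inside a continuous slope in most lists: the medians over lists were 384.5 at rank 100 and 383.6 at the rank after it, and in 9 lists both ranks had the same signal.

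The 5 strongest sites relative to their list's median all belonged to MYB155. The strongest stood 281.5 times above the median at chr1:83066616-83066816 and had summits of 56 of the other TFs. The next stood 248.1 times above it at chr10:129622476-129622676, with 31 other TFs, and the third 244.1 times at chr3:40401228-40401428, with 42 other TFs. The next pair stood 238.6 and 237.6 times above it at chr5:87564649-87564849 and chr1:223447627-223447827, with 29 and 43 other TFs. After these MYB155 sites the next TF was DBF1, whose rank 1 stood 204.0 times above its median at chr5:42167581-42167781, with 12 other TFs. Gene annotation of these v4 positions was not used here.

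The second question was whether strong sites are sites of many TFs. They were: a strongest site carried summits of 13.6 ± 7.65 of the other TFs on average, against 8.45 ± 5.25 at the lower-ranked peaks (mean ± SD over all TFs). The number was higher at the strongest sites in 106 TFs and lower in 6, a mean difference of 5.13 (SE 0.496). The two-sided sign-flip permutation test over TFs gave an adjusted p = 1.29e-05 over 9 measures, the smallest that 100000 resamples can give here. The positions in other lists, at any rank, did not choose the peaks. TFs of a stem share sites, so they are not fully independent units, and with 1 mean value per stem the difference was 5.52 with 33 of 35 stems and single TFs higher. The only batches seen were digits in the run identifiers, read here as years, 19 for 28 TFs and 20 for 75. Among lists of year 20 alone the numbers were 9.31 against 5.78 other TFs, and among lists of year 19 alone 4.69 against 2.87. When only the 5000 strongest peaks of each other list were counted, a setting chosen after seeing the data, the numbers were 8.27 against 2.36 (109 TFs higher and 3 lower, same test, adjusted p = 1.29e-05).

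Peaks in no other list were rare at the strongest sites. Of all 9750022 peaks, 82.7% had a summit of another TF within 100 bp. The strongest peaks lacked any other TF in 1.93% ± 7.38 of cases, against 6.90% ± 13.5 at the lower-ranked peaks (mean ± SD over all TFs), with medians of 0% and 1%. The share was higher at the strongest sites in 2 TFs, lower in 57 and equal in 53 (two-sided sign-flip permutation test, adjusted p = 1.29e-05). In 89 TFs none of the 100 sites was without another TF, which allows a share of up to 3% (3 counts, with an upper Wilson 95% limit of 3.70%). TCPTF40, a TCP protein, kept the most sites to itself, 55 of 100 against 65 at the lower-ranked peaks (Wilson 95% interval of the share at the strongest sites 45.2% to 64.4%). THX47 followed with 40 against 44 and AY110782, listed as a CAMTA protein, with 28 against 40. TCPTF40 and THX47, like ABI33 below, are the only TFs of their stems, and AY110782 has no stem. No other list of their own stem could match their peaks, and whether this gives their shares was not tested. The largest falls were in MYB83, with 4 against 51, in BHLH156, with 1 against 44, and in NACTF134, with 4 against 45. The rises were in ABI33, a B3-domain TF, with 8 against 5, and in EREB108, with 1 against 0.

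**Figure D2:**
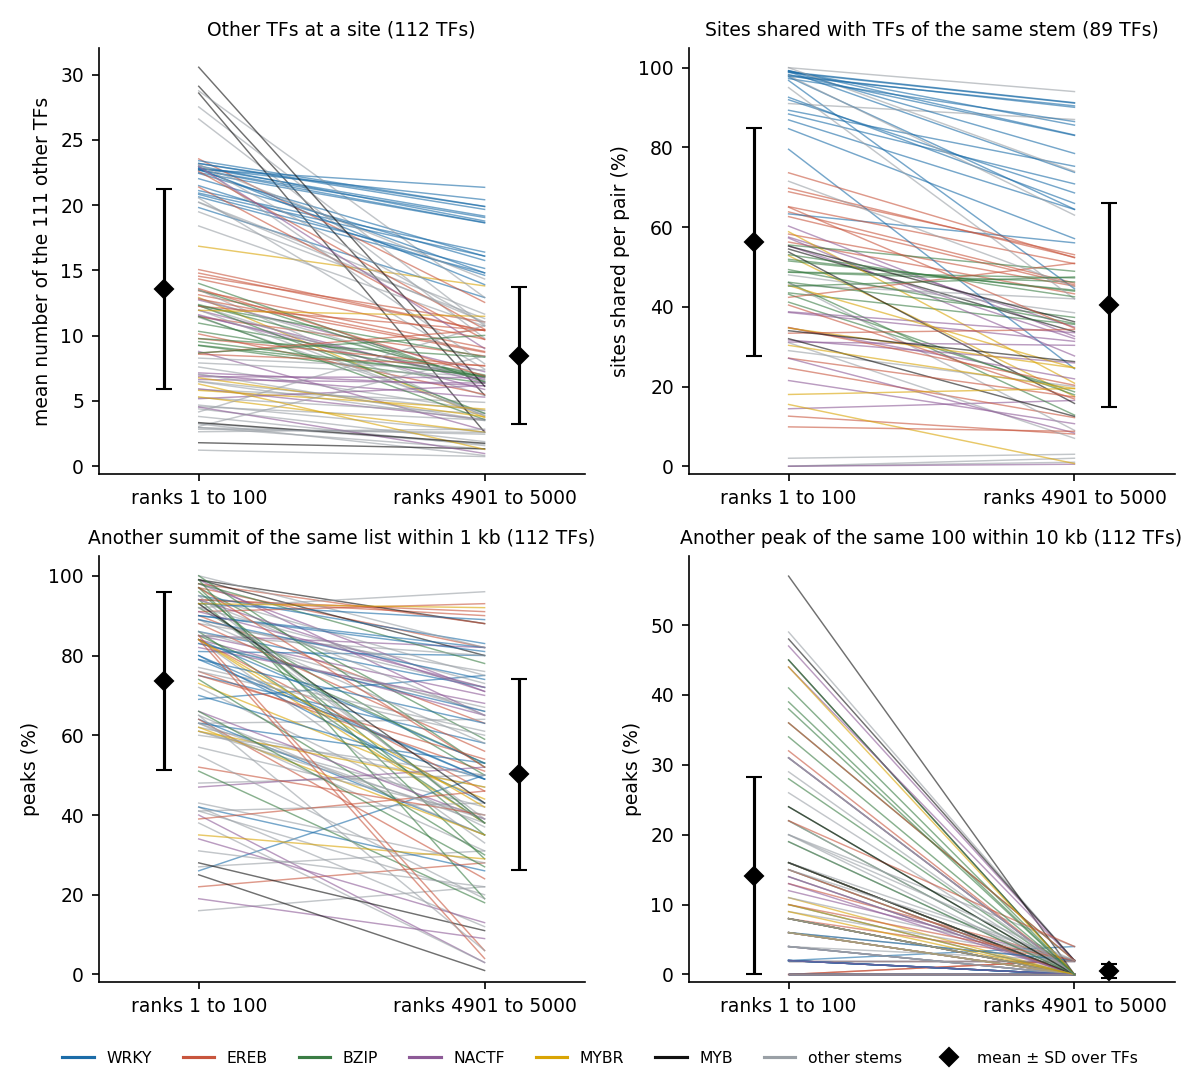
Each line joins a TF's value at ranks 1 to 100 (left) and at the lower-ranked peaks, whose ranks end at 5000 (right), coloured by name stem, for 4 measures: the mean number of the other TFs at a site, the percentage of sites shared with each TF of the same stem, the percentage with another summit of the same list within 1 kb, and the percentage with another peak of the same 100 within 10 kb. Diamonds and bars are the mean ± SD over TFs, 13.6 against 8.45 other TFs in the first measure.

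The most crowded strongest sites were those of MYB155, with 30.6 other TFs against 6.12 at the lower-ranked peaks, MYB73, with 29.1 against 5.44, and GATA24, with 28.8 against 12.9. In the GATA24 list rank 100 stood 3.72 times above the list median, against 9.71 times in the median list. MYB50 showed the largest difference, with 28.6 other TFs against 2.61. The emptiest were those of TCPTF40, with 1.23 against 0.740, MYB83, with 1.80 against 1.33, and HSFTF16, a heat shock factor, with 2.64 against 2.84. The largest differences in the opposite direction were in ABI33, with 4.16 other TFs against 10.8, in NKD1, with 3.05 against 8.45, and in EREB65, with 8.65 against 10.45. NKD1 is an INDETERMINATE-domain zinc finger known for aleurone cell fate. Among other endosperm regulators, the strongest sites of PBF1, the Dof protein of the prolamin box, carried 20.2 other TFs against 11.05. Those of MRP1, the MYB-related regulator of transfer cells, carried 11.4 against 4.04, and those of NRP1, a NAC protein, 7.91 against 6.89.

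Sharing was higher at the strongest sites both within a stem and between stems. A strongest site was present in the list of another TF of the same stem in 56.2% ± 28.6 of cases, averaged over the other TFs of the stem, against 40.5% ± 25.6 at the lower-ranked peaks (mean ± SD, n = 89 TFs whose stem holds others). The share was higher in 80 TFs and lower in 9 (two-sided sign-flip permutation test, adjusted p = 1.29e-05). For TFs of other stems it was 7.52% ± 6.51 against 4.02% ± 3.04 (all TFs), higher in 94 TFs and lower in 18 (same test, adjusted p = 1.29e-05). Some TFs of other stems are of the same listed family, such as GBF1 for the BZIP TFs. The measure was not recomputed between listed families. The strongest sites of NKD2 were all present in the list of NKD1, and those of OCL1, an HD-ZIP protein of the outer cell layer, in that of OCL5A. WRKY79 had 99.3% of its sites in a WRKY list on average. At the other end, GATA24, HB96 and NACTF134 had 0% of their strongest sites in a list of their own stem, which allows up to 3% per list compared.

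The difference was called in 5 of the 6 large stems by a test within each. TFs of a stem share sites and are compared with the same lists, so these tests treat dependent values as independent. In WRKY TFs same-stem sharing was 92.85% against 72.2% (n = 20, higher in 20, adjusted p = 6e-05), and in EREB TFs 47.6% against 34.8% (n = 17, higher in 15, adjusted p = 0.00066), both by sign-flip permutation with Benjamini-Hochberg adjustment over 6 stems. In BZIP TFs it was 48% against 36.8% (n = 13, higher in 12, exact test, adjusted p = 0.00146), and in NACTF TFs 36% against 23.6% (n = 13, higher in 11, exact test, adjusted p = 0.0022). In MYBR TFs it was 36.5% against 18.2% (n = 7, higher in 6, exact test, adjusted p = 0.0375). In MYB TFs it was 45.9% against 24.9% and higher in 5 of 5, where the exact test cannot go below 0.0625. The BZIP difference was no longer called when summits had to lie within 20 bp (1.42 percentage points, exact test, adjusted p = 0.458).

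A stricter view asks whether the strongest sites of 1 TF are also among the 100 strongest of another, so that both sets have the same size. Averaged over the other TFs of the stem, 16.6% ± 12.5 of the strongest sites were also among the 100 strongest of such a TF, whereas 0.252% ± 0.309 of the lower-ranked peaks fell into the same ranks of another TF of the stem (mean ± SD, n = 89 TFs). The share was higher at the top in 84 TFs, lower in 0 and equal in 5. This comparison is a description with no test, since both sets are cut by signal rank and a narrow band of inner ranks can hardly overlap between lists, whereas the top ranks can. Over the 75 TFs of the large stems, a pair of the same stem shared 17.8% ± 18.6 of its strongest sites (mean ± SD, 513 pairs) and a pair of different stems 0.05% ± 0.485 (2262 pairs). A permutation of the stem labels, with the one-sided alternative that pairs of a stem share more, gave p = 1e-05, the smallest that 100000 permutations can give. Of all 6216 pairs of TFs, 5469 (88.0%) shared none of their strongest sites.

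**Figure D3:**
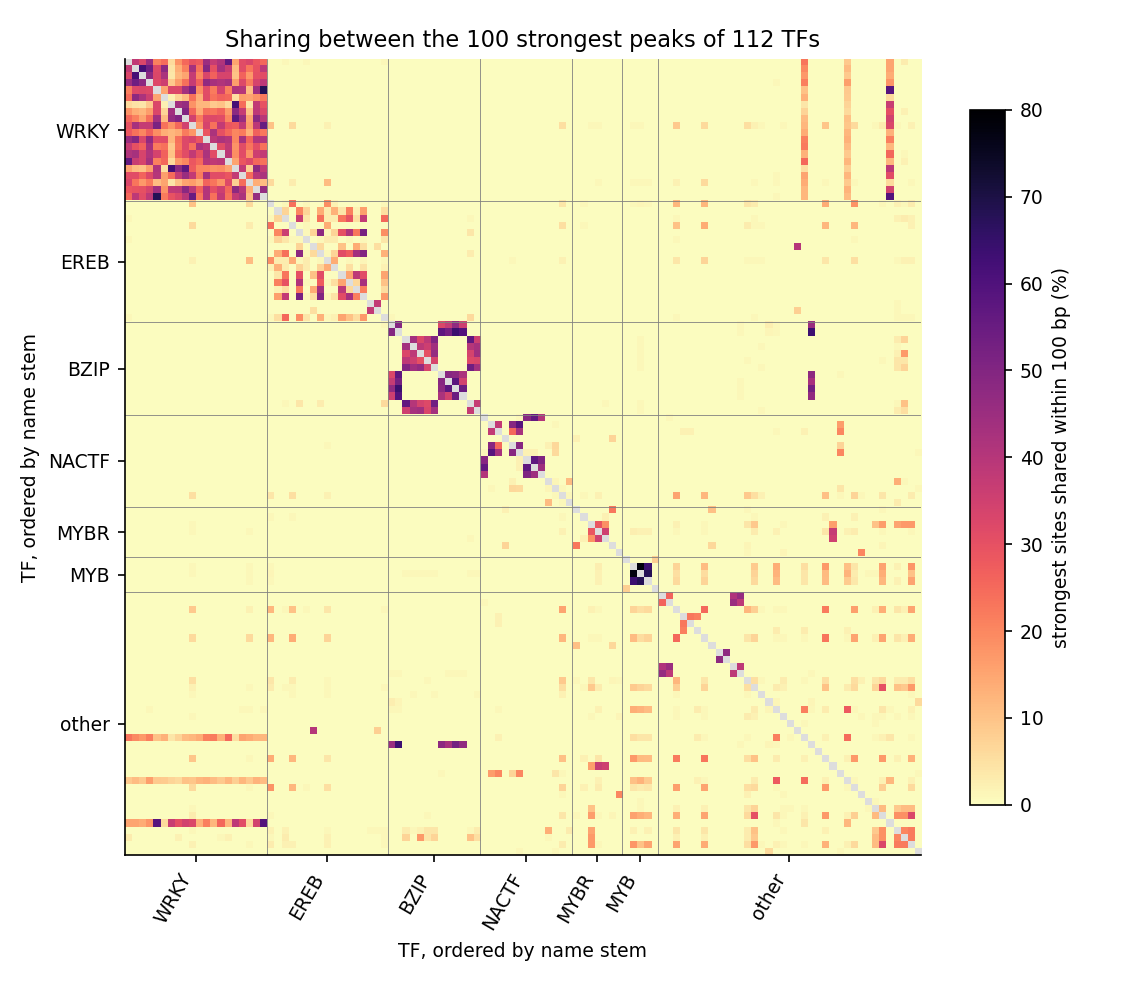
Percentage of the 100 strongest sites shared within 100 bp for each pair of TFs, ordered by name stem on both axes, with lines between the large stems and the smaller stems together under "other". Sharing concentrates in the WRKY square, in 2 separate BZIP groups and in small groups of the other stems, and 88.0% of the pairs share none.

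When TFs were linked wherever a pair shared 20% or more of its strongest sites, 90 TFs fell into 18 groups and 22 stayed alone. In 15 of the groups all TFs have the same family in the study's listing. The largest group held 24 TFs: all 20 WRKY TFs, the Dof proteins DOF36 and PBF1, BZR1, a regulator of brassinosteroid response, and ZmOrphan110. A single link was enough to join a group, so not every pair in one shared sites. BZR1 was linked to PBF1 and DOF36 (21.5%) and shared at most 1% with any WRKY TF. Every pair of WRKY TFs shared some of its strongest sites, from 2% to 68% with a mean of 29.2%, against a mean of 0.695% and a highest value of 4% at the lower-ranked peaks. PBF1 stood closest to BZR1, with 28%, and 89 of its 100 strongest sites were in the DOF36 list at a median rank of 325. The BZIP stem split in 2. BZIP52, BZIP54, BZIP60, BZIP75, BZIP104 and BZIP111 formed a group with GBF1, a G-box binding factor, with 32.5% to 64% of sites shared per pair. BZIP8, BZIP22, BZIP23, BZIP43, BZIP78, BZIP114 and BZIP121 formed the other, with 30% to 56.5% per pair. All 42 pairs of BZIP TFs from different groups shared none of their strongest sites. In the study's listing TGACGTGG, on either strand, is in the motif letters of 5 of the 7 TFs of the first group, all but BZIP52 and GBF1, and of 0 in the second. AGCTG is in those of 6 of the 7 of the second group, all but BZIP22, and of 0 in the first. Both words are the runs common to the bZIP TFs shown above and come from peaks of the same lists. The counts are therefore no independent evidence for the groups.

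The other stems were divided less evenly. The NAC TFs gave 1 group of NACTF2, NACTF11, NACTF29, NACTF126 and NRP1 and another of NACTF5, NACTF6, NACTF49 and NACTF109, and 5 NACTF TFs stayed alone. The largest EREB group held 9 TFs, with a median of 22% per pair, while DBF1 paired with EREB18 at 40% and EREB65 with EREB79 at 37.5%. MRP1 grouped with MYBR19, MYBR33 and MYBR81, and its closest partner was MYBR33 with 37%. HB91 and HB118 grouped with OCL1 and OCL5A, all HD-ZIP proteins, at 26% to 46%. MYBR98 and SMH1, proteins of the Myb type whose relatives bind telomere repeats, shared 20% with each other and at most 2% with any other TF. NKD1 and NKD2 shared 47.5% with each other and 0% with every other TF, and 98 of the 100 strongest NKD1 sites were in the NKD2 list at a median rank of 117. All 100 strongest NKD2 sites were in the NKD1 list at a median rank of 107.5.

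The pair with the most strongest sites in common was MYB155 with MYB50 at 78%. MYB50 with MYB73 and WRKY94 with WRKY123 each shared 68%, and BZIP60 with BZIP111 and MYB73 with MYB155 each 64%. Among different stems, BZIP111 with GBF1 shared 63.5%, but both are bZIP proteins in the study's listing, as are BZIP60 and BZIP52, which shared 52.5% and 47.5% with GBF1. ZmOrphan110, listed as a CAMTA protein, shared 59.5% with WRKY94 and 58.5% with WRKY123, the highest values of any pair from different listed families. With AY110782, also listed as CAMTA, it shared 0%. Its list thus goes with the WRKY lists and not with its listed family, and whether it holds the labelled protein was not tested, so its values across families may not be ones between families. All 100 of its strongest sites had summits in the lists of WRKY1, WRKY2, WRKY50, WRKY102, WRKY122 and WRKY123, at a median rank of 86.5 in the last. Of the 185 pairs that shared 30% or more, 161 were of the same stem and 174 of the same listed family. Among the lower-ranked peaks the highest pair shared 4%, and 96.7% of the pairs shared none.

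The sites that the most TFs hold among their 100 strongest were mostly those of WRKY TFs. Summits of the strongest sites were chained where neighbours lay within 100 bp, which made 6530 loci. Strongest sites of a single TF made up 4697 of them (71.9%). The other 1833 held those of 2 or more TFs and together 57.7% of the strongest peaks. Another 10948 loci came from the lower-ranked peaks, where 234 held 2 or more TFs, with 4.31% of the peaks and at most 4 TFs. Loci with 10 or more TFs numbered 42 at the strongest sites and 0 at the lower-ranked peaks, and 35 of the 42 included 10 or more WRKY TFs. At least 1 WRKY TF was in 41 of them, in 2 of these as the single WRKY TF, and in 10.2% of all 6530 loci. With summits within 20 bp, loci with 10 or more TFs numbered 23, of which 21 included 10 or more WRKY TFs. The loci are a description with no test. Among the groups linked at 20% above, only that of 24 TFs, with all WRKY TFs, holds 10 or more TFs. The next largest, of EREB TFs, holds 9. Whether group size gives the WRKY share of these loci was not tested.

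The locus with the most TFs, chr4:197641794-197642215, was among the strongest sites of 23 TFs, namely all 20 WRKY TFs, DOF36, PBF1 and ZmOrphan110. Its 26 peaks had a median rank of 4, and 25 TFs had a summit of any rank between its outermost summits, the span used for this count at every locus. At chr3:31277992-31278251 and at chr7:152217309-152217605 there were 21 TFs, 19 of them WRKY TFs, with ZmOrphan110 and PBF1. The 4 loci with 19 TFs were chr1:302057937-302058312, chr4:197567772-197568083, chr7:22952309-22952604 and chr9:131032905-131033215, each with 17 or 18 WRKY TFs. The eighth, chr1:156155331-156155688, held 18 TFs, 15 of them WRKY TFs. Besides WRKY TFs these 8 loci held only DOF36, PBF1 and ZmOrphan110, although between 23 and 26 TFs had a summit of any rank inside their spans. DOF36 and PBF1 are Dof proteins, and the closest partners of DOF36 were WRKY72 with 25% and PBF1 with 24.5%.

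A second kind of crowded site joined TFs of several listed families. Of the 15 loci with 7 or more stems, 1d042933, listed as a C2H2 zinc finger, was in 12, ZAG2, of the MADS family, and ZIM34 in 11 each, HB96, of the HD-ZIP family, in 9 and MADS53 in 8. GATA24 was in 7 of them and MYB50, MYB73 and MYB155 in 4 each. The locus with the most stems, chr1:253826070-253826418, was among the strongest of 12 TFs from 11 stems, counting each TF without a stem as 1, with a median rank of 8.5, and among its TFs were C3H11, GATA24, HB96, 1d042933, ZAG2, ZIM34 and WRKY47. The loci chr1:83066523-83066896, with MYB155's strongest peak of all, and chr10:17589523-17589909 each held 12 TFs from 10 stems, and 48 and 46 TFs had a summit of any rank inside their span. The 56 other TFs given above for MYB155's peak are those within 100 bp of its summit, a window that reaches beyond this span. A locus on chromosome 1, chr1:46267006-46267414, was shared in the same way by 9 TFs from 7 stems, and 51 TFs had a summit inside its span. The EREB TFs had crowded sites of their own, such as chr7:95164719-95165040, which was among the strongest sites of 9 EREB TFs and of no TF of another stem. Loci with 5 or more stems numbered 46 at the strongest sites and 0 at the lower-ranked peaks.

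In the lists of other TFs these sites stood lower. At least 20 of the 100 strongest GATA24 sites were present in each of 54 lists of other stems, and likewise for HB96, 1d042933 and ZAG2 in 52 each, for MADS53 in 49 and for MYB155 in 48. The median rank of a matching peak, as a percentage of the other list, was 16.1% for MYB155 in lists of other stems and 0.0430% in MYB lists. GLK44 held 97 of the 100 strongest MYB155 sites at a median rank of 13917 among its 117859 peaks, whereas MYB50 held 99 at a median rank of 56. Over the 86 TFs with matches of both kinds, the median of this percentage was 0.551% in lists of the same stem and 15.9% in lists of other stems, and it was lower in the same stem for 84 TFs. GATA24 and HB96 each had 83 of their strongest sites in the list of MADS53, at median ranks of 290 and 269. The pair shared 25% of its strongest sites, and GATA24 is listed as a GATA zinc finger and HB96 as an HD-ZIP protein. GLK44 stood at the other end and shared 0% of its strongest sites with the 100 strongest of any TF, and CPP10 and TCPTF40 shared at most 1%. The crowding of the MYB sites was present across run-identifier years: MYB155 sites were found in 31% of cases in lists of the same year and 25.1% in lists of other years, and those of MYB73 in 23% and 31.6%. For MYB50 the values were 27.7% and 24.2%. They were 26.7% and 25.2% for GATA24, 23.9% and 25.3% for HB96 and 23.1% and 23.6% for 1d042933. Sites of BZIP111 (19.6% and 7.72%) and WRKY123 (24.6% and 15.7%) were found less in other years, and the cause was not tested.

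The third question was whether strong sites cluster with other sites of the same TF. Of all peaks, 37.1% had another summit of the same list within 1 kb. Among the strongest sites the share was 73.5% ± 22.4, against 50.2% ± 23.9 at the lower-ranked peaks (mean ± SD over all TFs). It was higher in 100 TFs and lower in 12 (two-sided sign-flip permutation test, adjusted p = 1.29e-05). Within run-identifier years it was 70.7% against 51% for year 20 and 82.5% against 51.5% for year 19. The nearest summit of the same list lay at a median of 248 bp from a strongest site and 969 bp from a lower-ranked peak. It lay within 50 bp for 375 strongest peaks and between 50 and 100 bp for 1902, against 226 and 1205 lower-ranked peaks. Between TFs such summits counted as 1 site, and whether they are repeated calls of 1 peak was not tested. The neighbour was mostly much weaker, with a median of 29.2% of the signal of the strongest site, against 52.5% for the lower-ranked peaks. The rule fixes part of this contrast in signal, since few peaks can exceed the strongest.

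**Figure D4:**
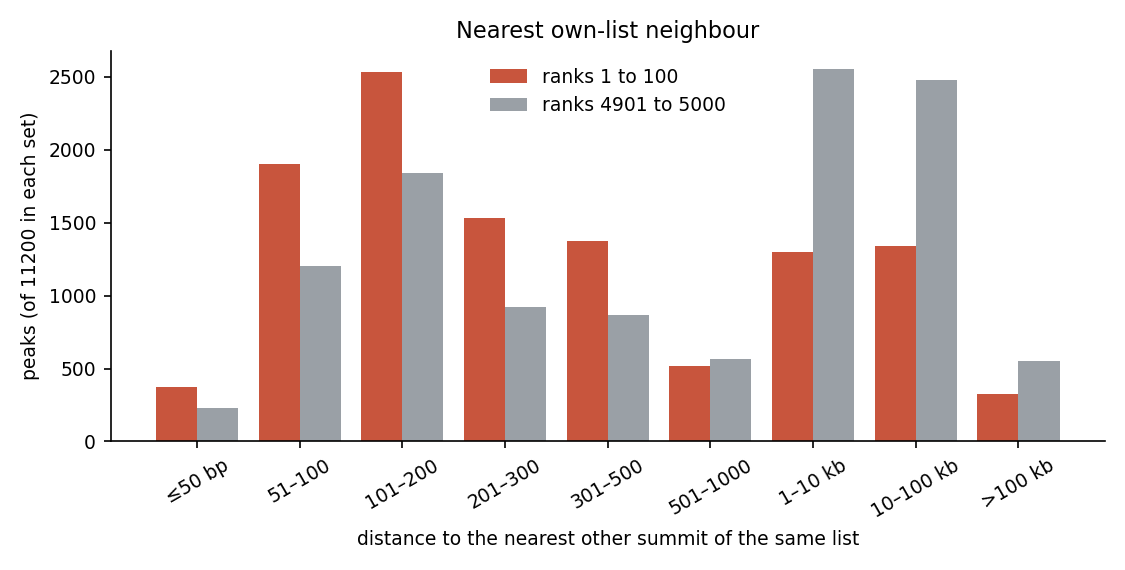
Number of peaks by the distance of the nearest other summit of the same list, for ranks 1 to 100 (left bars) and for the lower-ranked peaks, whose ranks end at 5000 (right bars). The strongest sites are most numerous between 100 and 200 bp, with 2537 peaks against 1838, and are fewer beyond 1 kb.

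All 100 strongest sites of BZIP111 and DBF1 had such a neighbour, against 52 and 82 at the lower-ranked peaks. BZIP54 had 99 against 19, EREB211 84 against 4 and EREB18 85 against 6, the 3 largest rises. The lowest were ZIM10 with 16 against 22, NACTF67 with 19 against 9 and EREB200 with 22 against 28. Their lists hold 6733, 11215 and 29414 peaks, and a short list has fewer possible neighbours. Whether list length gives these values was not tested. The largest fall was in WRKY47, with 26 against 50. By stem the rise was 87.3% against 40.5% in BZIP TFs (13 of 13 higher, exact test, adjusted p = 0.00082 over 6 stems) and 75.9% against 61.5% in WRKY TFs (18 of 20 higher, permutation test, adjusted p = 0.00082). EREB TFs were at 78.2% against 53.8% (14 of 17 higher, permutation test, adjusted p = 0.00082) and NACTF TFs at 71.1% against 52.3% (12 of 13 higher, exact test, adjusted p = 0.0011). These tests, too, treat TFs of a stem that share sites as independent. Among the endosperm regulators, 89 of the strongest NKD2 sites had a neighbour against 58, 72 of the MRP1 sites against 37, and 63 of the DOF36 sites against 64.

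The strongest sites also lay close to each other. Another of the same 100 lay within 10 kb for 14.2% ± 14.1 of them, against 0.518% ± 0.995 at the lower-ranked peaks, higher in 92 TFs, lower in 3 and equal in 17 (mean ± SD over all TFs). This is a description with no test, since a band of inner ranks leaves out close neighbours that are a little stronger or weaker, whereas the top ranks are open above. MYB50 had the most with 57 of 100 against 0, then 1d012968, listed as a C2H2 zinc finger, with 49 against 2 and MYB155 with 48 against 2. By stem BZIP TFs were at 28.7% against 0.154% (13 of 13 higher), MYB TFs at 38% against 0.4% (5 of 5 higher) and WRKY TFs at 2.90% against 0.4% (12 of 20 higher and 1 lower). In 16 TFs, EREB102, EREB108 and EREB196 among them, no 2 of the strongest sites lay within 10 kb. The 741 clusters of 2 or more held 1585 peaks, 666 of them were pairs, and in 439 the summits spanned 1 kb or less. MYB50 pairs were tight, with a median span of 220 bp over 27 clusters, whereas the 24 clusters of 1d012968 had a median span of 9590 bp.

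The largest cluster held 9 of the 100 strongest HB118 sites at chr2:236120628-236153143. They lay as 4 tight pairs, 250 to 328 bp apart, and 1 single site, with 7641 to 8094 bp between these. NKD1 had 7 of its strongest sites at chr5:191734432-191743677, at ranks 21 to 94, and NKD2 had 4 within the same stretch. The spacings of NKD1 alternated between 2565 to 2752 bp and 263 to 451 bp. AY110782 had 7 at ctg59:23508-38984, a contig outside the chromosomes. NACTF2 had 5 at chr2:26983969-26998445, with spacings of 7044, 93, 7046 and 93 bp. Its list is a merged one, and summits 93 bp apart would count as 1 shared site between TFs. BZIP43, BZIP78 and BZIP114 each had 4 in a common stretch that starts near chr5:29428086, as 2 close pairs with 4859, 4862 and 4859 bp between the pairs. No sequence was read there, so whether the DNA itself repeats was not tested.

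The fourth question was where the strongest sites lie. On contigs outside chromosomes 1 to 10 there were 202 of the strongest peaks and 145 of the lower-ranked ones, and 1.03% of all peaks. The means per TF were 1.80% ± 1.57 and 1.29% ± 1.26 (SD over all TFs), higher in 61 TFs and lower in 33 (two-sided sign-flip permutation test, adjusted p = 0.00919). Without the WRKY lists the values were 1.49% and 1.24% and the difference was not called (permutation test, adjusted p = 0.262), and likewise within year 20 (1.80% and 1.41%, adjusted p = 0.104), within year 19 (1.57% and 1.18%, adjusted p = 0.272) and with 1 mean value per stem (adjusted p = 0.32). By stem it was higher in 18 of 20 WRKY TFs (3.25% against 1.55%, permutation test, adjusted p = 0.0003) and in 12 of 17 EREB TFs (2.06% against 0.824%, permutation test, adjusted p = 0.0391). It was lower in 8 of 13 BZIP TFs (0.231% against 1.31%, exact test, adjusted p = 0.0391). TFs of a stem share sites, so their values are not independent and 1 site can count in many lists. In WRKY TFs, 1 site on ctg232 counted in 15 lists and 1 on ctg106 in 12.

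A few contigs held many of these peaks. The 5 contigs with the most strongest sites held 70 of the 202. On ctg232 the same site at positions 51030 to 51313 was among the strongest of 15 WRKY TFs, and on ctg106 the site at positions 3160 to 3443 was among those of 12 WRKY TFs, with 0 lower-ranked peaks on either contig. The other 3 were ctg150, with 19 strongest peaks of 15 TFs, ctg182, with 16 of 12 TFs, and ctg59, with 8 of AY110782 alone. AY110782 had the highest share outside the chromosomes, 9 of 100 against 1 (Wilson 95% interval of the first 4.81% to 16.2%), followed by NACTF29 with 6 against 1 and EREB79 with 5 against 0. Of the 9 AY110782 peaks, 8 lie on ctg59 and 7 of these in 1 cluster. The interval takes peaks as independent draws and is therefore too narrow here. The largest falls were in HSFTF17, with 1 against 6, and NKD1, with 0 against 4.

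**Figure D5:**
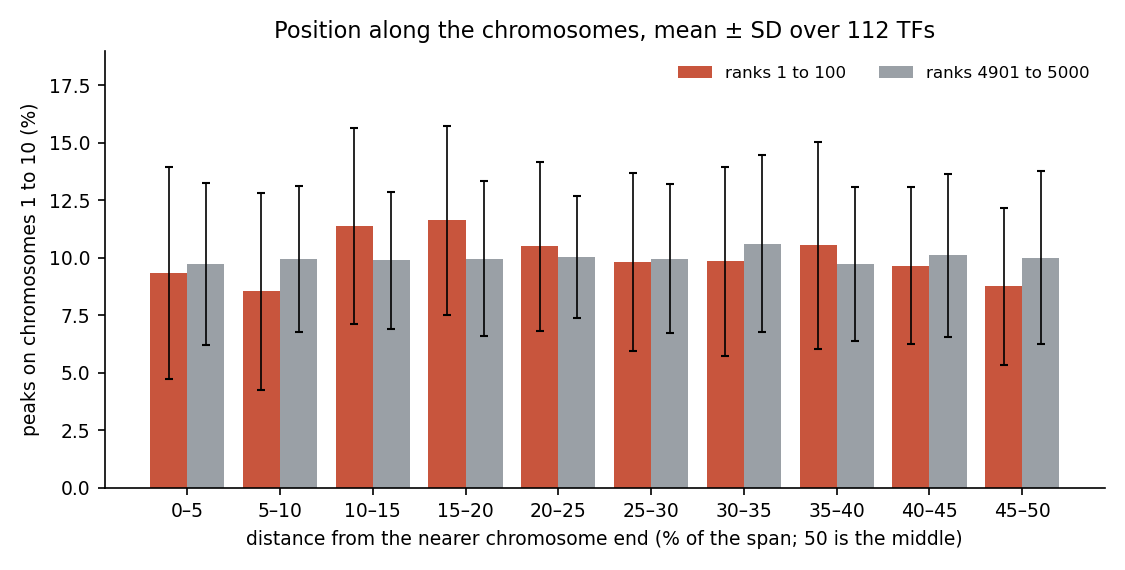
Percentage of peaks on chromosomes 1 to 10 by distance from the nearer chromosome end in steps of 5% of the span, for ranks 1 to 100 (left bars) and for the lower-ranked peaks, whose ranks end at 5000 (right bars), mean ± SD over all TFs. The strongest sites were at 8.53% against 9.95% between 5% and 10% from the end and at 11.6% against 9.96% between 15% and 20%, and single steps were not tested.

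Along the chromosomes the difference between the sets did not pass the threshold of 0.05. The chromosome ends, taken as 25% of the length on each side, held 51.4% ± 10.4 of the strongest sites, against 49.6% ± 8.03 at the lower-ranked peaks and 50.7% of all peaks (mean ± SD over all TFs, higher in 68 and lower in 44, two-sided sign-flip permutation test, adjusted p = 0.0568). The values pointed in opposite directions by run-identifier year, with 53.5% against 49.3% in year 20 (higher in 53 of 75, permutation test, adjusted p = 0.000585) and 47.1% against 49.8% in year 19 (higher in 11 of 28, adjusted p = 0.134). The difference between years was not tested. In the outer 10% alone the strongest sites were fewer, 17.9% against 19.7%, with 41 TFs higher and 70 lower (permutation test, adjusted p = 0.0141). TFs stood far apart, from 74.7% in 1d012968 and in MYB83 to 27.7% in NACTF29 and 27.8% in NRP1, whose values at the lower-ranked peaks were 44%, 69%, 48.5% and 50.5%. For no single chromosome did the share of peaks pass the threshold after adjustment over the 10, the smallest adjusted p being 0.123 for chromosome 3 (11.3% against 12.6% of peaks, two-sided sign-flip permutation test).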

How the data were processed

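Peak lists of 112 TFs, 1 per TF, were analysed (11200 strongest and 11200 lower-ranked peaks, ranks 4901 to 5000, intervals of 201 bp). Per the study's methods, the authors trimmed reads with Trimmomatic 0.39, aligned them to B73 v4 with Bowtie2 2.4.1, removed duplicates and called peaks with GEM against an empty HaloTag library. The deposited signal column ranked the peaks within a list. The deposited score column and the −log10 p and q columns by the authors were not used. The lists carry no read depth, so depth is unknown. The NRP1 and NACTF2 lists are merged lists of the authors, of unstated inputs. Contig names of the GATA24 list carry another prefix and were harmonised.

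Sharing, clustering and position were computed with Python 3.11.15 and numpy, as defined in the text. Paired differences were tested by sign flips over TFs (100000 resamples, exact under 17 TFs), with Benjamini-Hochberg adjustment over 9 measures, of which sharing inside the same ranks and sites within 10 kb of each other are given without their test, since the choice of ranks fixes their direction. Alternatives changed the summit distance, the ranks compared, the stems and the run-identifier year (19: 28 lists, 20: 75, 21: 4, none: 5). The scripts were tested on simulated lists. Wilson intervals and floors (3 counts) cover counting error only and take the peaks of a list as independent, which clustered peaks are not. TFs named are the 3 highest, lowest, most raised and most lowered per measure, the top pairs, loci, sites and contigs, and regulators named by the study. Groups linked at 20%, largest clusters, loci by stems, tests within a stem of measures other than same-stem sharing, and differences between stems were added after the values were seen. Members and lists were chosen with earlier results of these data known.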

Additional observations from a re-analysis of the deposited data

Results flagged for a closer look

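Among the 7 MYBR TFs, MYBR98 stood apart from the others in values of its 100 strongest peaks. It had 44 of them within 10 kb of another, where the next TF had 11. They held 12.1% of the list's signal, where the next list had 2.43%. Its rank 1 had 4.36 times the signal of rank 100, where the next had 2.83 times, and it had 1 site without any other TF, where the other 6 had 0, a gap inside counting error (Wilson 95% intervals 0.177% to 5.45% and 0% to 3.70%). Among the 5 MYB TFs, MYB155 lay far from the others in signal share (28.2%, the next 4.66%), and MYB83 had 4 sites without another TF, where the rest had 0, with intervals that also overlap (1.57% to 9.84% and 0% to 3.70%). In all 22 sets of values were looked at, where chance alone gives about 1 in 20. The signal values chose the peaks and are a description, so nothing is read from the number of such sets.

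The difference between the strongest and the lower-ranked peaks itself differed between the 6 large stems (75 TFs) in 5 of 9 measures, by a Kruskal-Wallis statistic with 100000 permutations of the stem labels and adjustment over 9, a test added after the data were seen. For sites without another TF the adjusted p was 6.75e-05, with MYB TFs at 0.800% against 18.2% and WRKY TFs at 0% against 0.200%. The MYB mean of 18.2% was raised by MYB83 (51%) and MYB50 (30%), and the median over MYB TFs was 6%. The WRKY share was already near 0 at the lower-ranked peaks, so it could hardly fall. WRKY is also the largest stem, so a WRKY peak has the most lists of its own stem to match. Whether stem size gives this difference was not tested. For sharing inside the same ranks, which is near 0 at the lower-ranked peaks through the choice of ranks so that the values at the strongest sites decide it, the adjusted p was 3e-05, with WRKY TFs at 29.2% against 0.695% and MYBR TFs at 5.10% against 0%. For a neighbour within 1 kb it was 0.000198, with BZIP TFs at 87.3% against 40.5% and WRKY TFs at 75.9% against 61.5%. For strongest sites within 10 kb of each other, to which the same applies, it was 3e-05, with MYB TFs at 38% against 0.400% and WRKY TFs at 2.90% against 0.400%. For contigs outside the chromosomes it was 3e-05, with WRKY TFs higher and BZIP TFs lower, as given above. TFs of a stem share sites, so these tests between stems treat dependent values as independent.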

How the results depend on the processing

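Recomputed under the alternatives, 132 values of the main results stayed the same, 7 lost the call, 2 gained it, 3 reversed and 2 moved. For tested values this means direction and side of the threshold, and for signal share and loci a change within a set limit. The 132 include sharing inside the same ranks and sites within 10 kb of each other. The choice of ranks fixes the direction of these measures, so the 132 do not measure robustness. The share outside chromosomes 1 to 10 lost its call against 100 ranks in the middle of the 5000 strongest (0.37 percentage points), against the 100 peaks around the median rank (0.48), in run-identifier year 20 (0.39) or 19 (0.39), with 1 mean per stem (0.37) and without the WRKY lists (0.25). The outer-quarter difference was called with the 50 strongest peaks (2.77) and in year 20 (4.15), and reversed against the middle of the list (-0.44), in year 19 (-2.70) and in the outer 10% (-1.79). The BZIP same-stem difference lost its call within 20 bp (1.42). The signal share was 5.86% of the 5000 strongest peaks, and loci with 10 or more TFs numbered 23 within 20 bp. Leaving out single MYB TFs moved the MYB same-stem difference between 13.2 and 27.8 percentage points and the same-stem against different-stem difference between 17.6 and 17.8. The causes were not tested. Counting only other lists of another run-identifier year (1.94 other TFs more at the strongest sites), or only the 5000 strongest peaks of other lists (5.91 more), both added after the data were seen, kept the calls of sharing with other TFs and stems. Of the values of single TFs and pairs, 310 stayed within their spread and 76 moved beyond it. With summits within 20 bp 42 moved and 27 stayed, so most values of sharing by single TFs and pairs depend on that distance. No paired analysis was possible because a replicate number here only counts the TFs of a stem, while the pairing of both rank sets within a list is part of every main test of them. Read depth is unknown, no TF has a replicate list, and the letters at the sites could not be read without a v4 genome.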
